A study of Mus musculus with 6 samples.

Results

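The set examined here consists of 10 genes known for their part in the maintenance or the differentiation of spermatogonial stem cells, chosen by name from 21770 protein-coding genes of the annotation: the receptor genes Ret, Gfra1 and Kit, and the genes for the transcription regulators Etv5, Bcl6b, Id4, Zbtb16, Foxo1, Sohlh1 and Sohlh2. Their rows were those whose nearest start site or annotated transcript belonged to one of the genes, which gave 39 of 75330 listed intervals. All libraries came from male germ cells at embryonic stage E16.5, labelled prospermatogonia, prepared by fluorescence sorting for GFP from gonads of embryos whose parents were homozygous for an Oct4-EGFP transgene (B6;129S4-Pou5f1tm2Jae/J). The labels give the strain as C57BL/6 and the genotype as Taf4b-wildtype in all 6 samples, with antibodies to TAF4b, H3K4me3 or IgG and 2 replicates of each. Peaks of TAF4b and regions of H3K4me3 were used, and the IgG libraries were not analysed here. The labels do not say which sorted fraction entered each library, or whether the replicates came from separate animals or litters.

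Spermatogonial stem cells descend from prospermatogonia and sustain sperm production throughout adult life. Sertoli cells secrete GDNF, which binds the co-receptor GFRA1 and signals through the tyrosine kinase RET, and ETV5, BCL6B and ID4 are regulators that act downstream of it or mark the cells that respond to it. ZBTB16, also called PLZF, and FOXO1 are needed to maintain the undifferentiated pool, whereas SOHLH1, SOHLH2 and the receptor KIT belong to the step in which spermatogonia commit to differentiate. TAF4b is a germ cell-enriched subunit of TFIID, the general factor that assembles with RNA polymerase II at promoters, and mice without it lose their germ line after birth. H3K4me3 is a histone mark of promoters that are active or held ready. In CUT&RUN an antibody directs a nuclease to cut out the DNA around its target, so that bound places appear as clusters of reads.

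The promoter peaks of TAF4b at Etv5, Zbtb16 and Foxo1, and a peak inside Kit that lies far from its start site, were the member peaks with sequence outside annotated exons. They are shown to let the letters under these peaks be read; the Ret and Sohlh2 promoter peaks lie in annotated exons and are not shown. Each run is the part of the listed peak outside every annotated exon, read from GRCm39 5′ to 3′ on the strand of the gene. Capitals mark exact matches, on either strand, to the letter patterns named below.
Etv5, TAF4b replicate 1, promoter, chr16:22258484-22258593, minus strand: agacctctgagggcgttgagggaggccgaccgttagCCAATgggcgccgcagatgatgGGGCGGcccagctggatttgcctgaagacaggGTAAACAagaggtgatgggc
Zbtb16, TAF4b replicate 1, promoter, chr9:48747658-48747748, minus strand: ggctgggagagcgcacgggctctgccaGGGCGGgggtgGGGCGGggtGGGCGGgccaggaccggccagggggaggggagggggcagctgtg
Foxo1, TAF4b replicate 1, promoter, chr3:52175310-52175452, plus strand: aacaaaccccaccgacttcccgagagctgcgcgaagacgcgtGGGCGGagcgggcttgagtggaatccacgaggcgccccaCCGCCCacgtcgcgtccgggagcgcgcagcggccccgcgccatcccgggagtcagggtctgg
Foxo1, TAF4b replicate 2, promoter, chr3:52175595-52175756, plus strand: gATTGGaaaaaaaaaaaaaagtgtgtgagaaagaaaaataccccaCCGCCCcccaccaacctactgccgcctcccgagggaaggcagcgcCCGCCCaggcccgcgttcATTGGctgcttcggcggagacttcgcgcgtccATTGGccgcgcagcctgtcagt
Kit, TAF4b replicate 1, intron 1, chr5:75756858-75757000, plus strand: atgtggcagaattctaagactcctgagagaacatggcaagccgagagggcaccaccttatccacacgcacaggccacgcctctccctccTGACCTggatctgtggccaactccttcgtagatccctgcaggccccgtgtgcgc

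The patterns searched were GGGCGG (the GC box, a site for SP-family proteins), CCAAT (the box bound by NF-Y), TATAAA (the TATA box), CGGAAG (the core of ETS sites, the family to which ETV5 belongs), TGACGTCA (the site of CREB and its relatives), CACGTG (an E-box), GTAAACA (a site of forkhead factors, the family of FOXO1), TGCGCA (the inner part of the NRF1 site) and AGGTCA (the core of nuclear receptor sites). None of these patterns contains another. The GC box was in the whole peak at all 5 member promoters of TAF4b replicate 1 and in 56.9% of all 5756 promoter peaks of that list, which have the same length. The shown part of the Zbtb16 peak held 3 GC boxes, and that of the first Foxo1 peak held 2. A CCAAT box was in 1 of these 5 peaks, that of Etv5, and in 37.9% of all promoter peaks of the list. The Etv5 peak also held the forkhead pattern, which was in 1.16% of the promoter peaks. In replicate 2, the shown part of the Foxo1 peak held 2 GC boxes and 3 CCAAT boxes. Over whole peaks, a GC box was in 70.7% and a CCAAT box in 58.4% of the 748 promoter peaks of that list. The Kit peak held neither, and its AGGTCA pattern was in 4.64% of replicate 1 promoter peaks. No ETS core was in any of the 5 replicate 1 promoter peaks of members, against 23.2% of all promoter peaks. A match describes the letters in a window and is not a measured binding site.

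TAF4b promoter peaks were listed at 5 of the 10 genes in replicate 1, namely Etv5, Sohlh2, Ret, Zbtb16 and Foxo1, and at 1 of 10, Foxo1, in replicate 2. A promoter peak is one that the authors' annotation classed as promoter-TSS for a transcript of the gene. By the same rule 22.7% of all protein-coding genes had a promoter peak in replicate 1 and 3.14% in replicate 2. In either replicate it was 5 of 10 members and 23.1% of genes, and in both replicates 1 of 10 members and 2.70% of genes. No TAF4b peak of either list was named for Gfra1, Id4, Bcl6b or Sohlh1, and Kit had only the intronic peak. With 10 genes a single gene moves the share by 10 percentage points, and the files allow no test over samples of such a count. Replicate 1 held 7861 peaks and replicate 2 held 848, and a gene absent from the shorter list is not shown to lack TAF4b.

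H3K4me3 promoter regions were listed at 7 of the 10 genes in replicate 1 (44.0% of all protein-coding genes) and at 2 of 10 in replicate 2 (4.13%), Etv5 and Sohlh2. In either replicate they were listed at 8 of 10 members and 44.8% of genes. The class is set by the centre of the interval, and 3 members, Kit, Sohlh1 and Sohlh2, had a replicate 1 region across their start that was classed as exon or intron. Counting every region whose centre lay within 1000 bp of an annotated start site gave 10 of 10 members and 70.4% of genes. Counting regions that covered a start site gave 9 of 10 members and 64.3% of genes, with Bcl6b the exception. Both a TAF4b peak and an H3K4me3 region of the promoter class were present at 4 of 10 members in replicate 1, against 16.7% of genes. The share of cells carrying the mark and the signal in each cell cannot be told apart in these pooled cells.

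**Figure D1:**
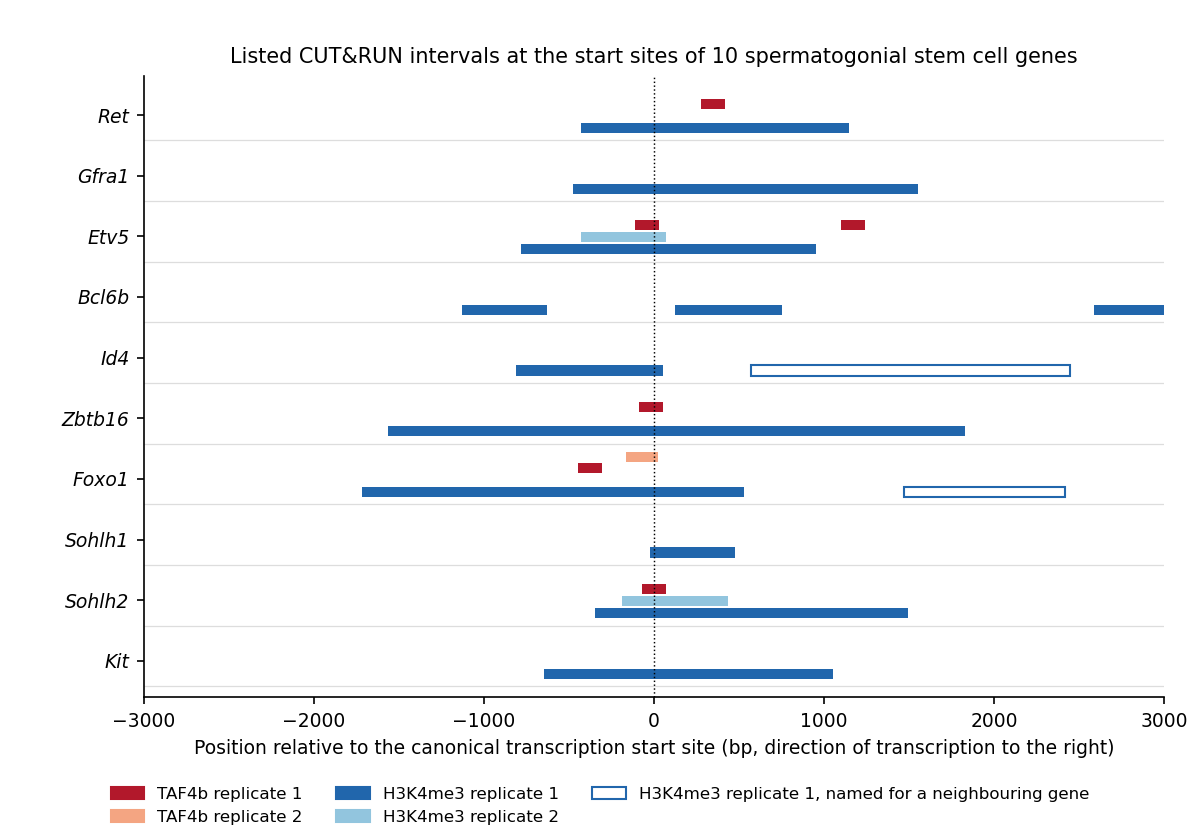
Listed intervals within 3000 bp of the canonical start site of each gene, with position in bp on the x axis and 1 row per gene. Filled bars are TAF4b peaks and H3K4me3 regions of the gene in each replicate, and open bars are H3K4me3 regions named for a neighbouring gene. H3K4me3 replicate 1 bars lie at or near all 10 starts, TAF4b bars lie near 5 of them, and the 2 Foxo1 peaks do not overlap.

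Of the 2 receptor genes of the GDNF pathway, Ret had a TAF4b peak in replicate 1, neither had one in replicate 2, and the difference between the genes was not tested. Ret (ENSMUSG00000030110, chr6:118128706-118174769, minus strand), the signalling kinase, had a TAF4b replicate 1 promoter peak at chr6:118174351-118174493 with a score of 12.9, which ranked 4578 of 7861 (rank is 1 plus the number of intervals with a higher score). The score is the authors' own value and is compared only within a list. The deposited distance put this peak 257 bp downstream of a start site, and on the GENCODE M39 annotation its centre lay 347 bp downstream of the canonical start, before the other annotated start at 118174094. It lay wholly inside a H3K4me3 replicate 1 region of 1575 bp at chr6:118173623-118175198, with a score of 110.3 and rank 7268 of 64891. A second H3K4me3 region, of 954 bp and score 79, was intergenic, with a deposited distance of -18230 bp.

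Gfra1 (ENSMUSG00000025089, chr19:58223212-58444346, minus strand), the co-receptor that binds GDNF, had no TAF4b peak in either list. A start-site region is a gene's highest-scoring H3K4me3 replicate 1 region with its centre within 1000 bp of an annotated start. The H3K4me3 replicate 1 promoter region of Gfra1 scored 126.7, the second highest among the start-site regions of the 10 genes, below Zbtb16. This region had rank 4890 and a width of 2026 bp (chr19:58442794-58444820). It covered the canonical start of Gfra1, which has 8 annotated start sites. Another gene, Gm41876, starts 326 bp from that canonical start, and the lists do not say to which gene a signal there belongs. Another 3 regions lay in Gfra1 introns, with scores of 32.8 to 74.5, and the one in intron 8 was nearest to the start of another gene, Gm16277. Neither Ret nor Gfra1 was in the H3K4me3 replicate 2 list.

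Etv5 (ENSMUSG00000013089, chr16:22200052-22259662, minus strand), an ETS factor that GDNF induces, had the highest-ranked TAF4b peak of the set. The peak at chr16:22258451-22258593 had a score of 39.7 in replicate 1 and ranked 193 of 7861, above 97.4% of the list. Its centre lay -53 bp from the start by the deposited distance and -39 bp from the canonical start of GENCODE M39. A second TAF4b peak (chr16:22257241-22257383, score 20.3, rank 2247) was classed as intron, with a deposited distance of 1008 bp. GENCODE M39 places a further Etv5 start site 83 bp upstream of the centre of that peak, and the peak lay in an exon of that transcript. It was 149 bp outside the nearest H3K4me3 replicate 1 region, and so was the sole TAF4b peak of a member that shared no base with one.

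Etv5 was also 1 of the 2 members with H3K4me3 in both replicates. The replicate 1 promoter region spanned chr16:22257533-22259264, was 1731 bp wide and scored 110.3. The replicate 2 region spanned chr16:22258410-22258910, was 500 bp wide, scored 101.1 and ranked 1165 of 1730. Both contained the whole of the higher-scoring TAF4b peak. No TAF4b peak of replicate 2 was named for Etv5. A long noncoding RNA gene, Gm59753, starts 172 bp from Etv5 on the opposite strand, and the lists do not say to which gene a signal between them belongs. Further H3K4me3 regions in replicate 1 were an intronic one with a score of 23.8 and intergenic ones with scores of 38.8 and 44.7.

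Bcl6b (ENSMUSG00000000317, chr11:70113871-70120624, minus strand), a repressor that is induced by GDNF, and Id4 (ENSMUSG00000021379, chr13:48414558-48419502, plus strand), an inhibitor of basic helix-loop-helix factors found in the most stem-like spermatogonia, had no TAF4b peak. At Bcl6b the start itself lay between H3K4me3 regions: a promoter-class region of 500 bp and score 61.1 had a deposited distance of -796 bp, and a region of 628 bp and score 49.2 had one of 396 bp. A further Bcl6b region, of 1036 bp and score 67.1, lay over exon 8. Another gene, Gm73721, starts 265 bp from the canonical start of Bcl6b. At Id4 the promoter region was 868 bp wide, scored 74.5 and ended just past the start (chr13:48413745-48414613). A wider region over the Id4 gene body, 1880 bp with a score of 105.8 (chr13:48415127-48417007), was named for Gm49291, a noncoding gene on the opposite strand that starts 247 bp from Id4. Neither gene was in the H3K4me3 replicate 2 list.

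Zbtb16 (ENSMUSG00000066687, chr9:48563141-48748664, minus strand), the zinc finger factor PLZF, had the widest and highest-scoring H3K4me3 region among the 10 genes. In replicate 1 it spanned chr9:48745829-48749224, 3395 bp, with a score of 174.4 and rank 1425 of 64891. Among the 9569 protein-coding genes with a promoter region in that list, 98.6% had a narrower one and 93.3% a lower score. Its TAF4b peak was low in comparison: at chr9:48747606-48747748 it scored 9.93 and ranked 6002 of 7861. The deposited distance of this peak was -155 bp, and its centre lay at -20 bp from the canonical start of GENCODE M39. No Zbtb16 interval was listed in replicate 2 of either antibody.

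Foxo1 (ENSMUSG00000044167, chr3:52175757-52260642, plus strand), a forkhead factor that works downstream of PI3K and AKT, was the sole member with TAF4b promoter peaks in both replicates, but the 2 peaks did not overlap. The replicate 1 peak at chr3:52175310-52175452 had a deposited distance of -376 bp, scored 6.95 and ranked 7796 of 7861. The replicate 2 peak at chr3:52175595-52175783 had one of -68 bp, scored 40.5 and ranked 845 of 848. The centres were 308 bp apart, and both stood at the bottom of their lists, the replicate 2 peak at its lowest listed score. Both lay wholly in the H3K4me3 replicate 1 promoter region of Foxo1 (chr3:52174037-52176286), which was 2249 bp wide and scored 111.8. Among the 9569 protein-coding genes with a promoter region in that H3K4me3 list, 90.1% had a widest region that was narrower. Without the lowest-scoring 5% of each list Foxo1 had no TAF4b peak, which left 4 members in replicate 1 or 2. H3K4me3 replicate 1 also held intergenic regions at deposited distances of -5516 and -10290 bp, with scores of 44.7 and 23.8.

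The 2 Sohlh genes encode basic helix-loop-helix proteins that pair with each other, and only Sohlh2 had a TAF4b peak, in replicate 1. Sohlh2 (ENSMUSG00000027794, chr3:55089265-55117382, plus strand) had a TAF4b replicate 1 promoter peak at chr3:55089332-55089474 with a score of 13.4 and rank 4384 of 7861. Its centre lay -46 bp from the start by the deposited distance and -2 bp from the canonical start of GENCODE M39. The H3K4me3 region over this start was 1844 bp wide with a score of 110.3 in replicate 1. In replicate 2 it was 625 bp wide with a score of 141.5 and rank 307 of 1730, the higher of the 2 member regions in that list. Another gene, Gm65848, starts 971 bp from the canonical start of Sohlh2. Sohlh1 (ENSMUSG00000059625, chr2:25733007-25737351, minus strand) had no TAF4b peak, and its H3K4me3 region in replicate 1 (chr2:25736877-25737377) was at the minimum width of 500 bp with a score of 25.3 and rank 52967 of 64891. It was the lowest of the 10 start-site regions, with 3.19% of 15321 genes scoring lower.

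Kit (ENSMUSG00000005672, chr5:75735576-75817404, plus strand), the receptor for stem cell factor, had more listed H3K4me3 intervals than any other member. Of its 9 regions in replicate 1, 8 overlapped the gene and 5 of those were annotated to intron 1, and their scores ran from 20.9 to 122.2. As many nearest regions were found at 0.974% of all protein-coding genes, and at 5.24% of the 3228 genes at least as long as Kit, for which the median was 2. The start-site region (chr5:75734926-75736627) was 1701 bp wide, scored 122.2 and ranked 5412, and its centre fell in exon 1. Kit had no TAF4b promoter peak. Its TAF4b peak lay in intron 1 (chr5:75756858-75757000), 21353 bp downstream of the canonical start and at a deposited distance of -14305 bp from another annotated Kit start, with a score of 7.94 and rank 7270 of 7861, inside an H3K4me3 region of 770 bp with a score of 46.2. No Kit interval was listed in replicate 2 of either antibody.

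**Figure D2:**
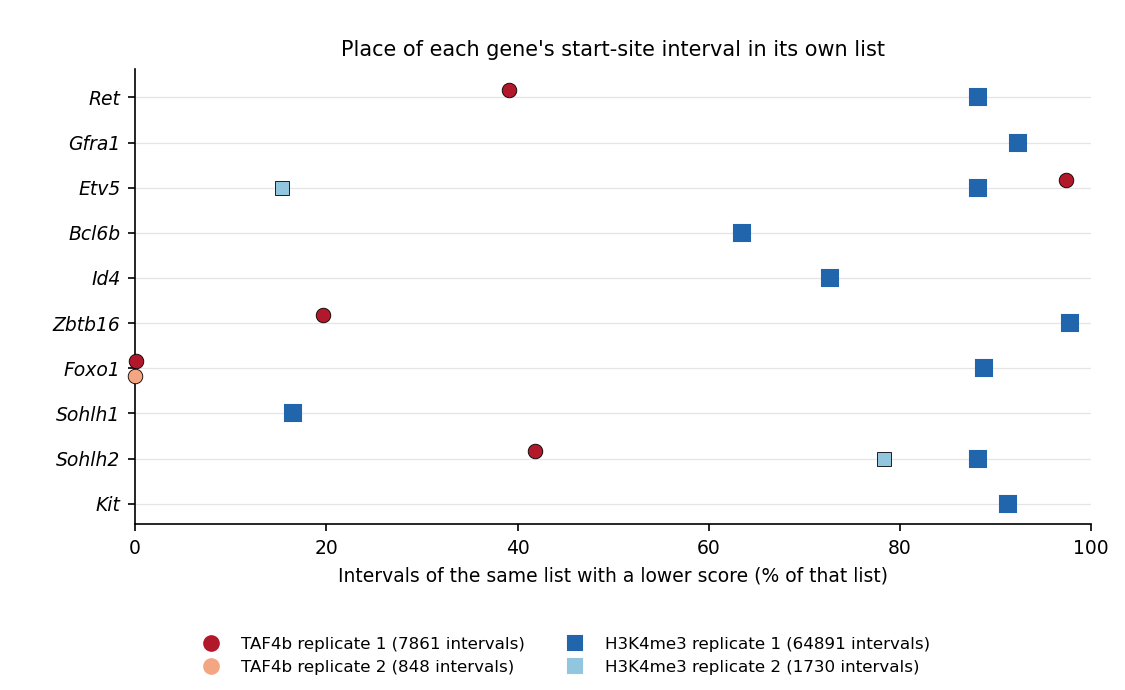
Start-site interval of each gene, placed by the percentage of intervals of the same list with a lower score (x axis). Circles are TAF4b promoter peaks; squares are H3K4me3 start-site regions in replicate 1 and promoter regions in replicate 2. TAF4b places run from 0.0636% (Foxo1) to 97.4% (Etv5) in replicate 1, and in H3K4me3 replicate 1 Sohlh1 is lowest and Zbtb16 highest (97.8%).

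As a group, the members with a TAF4b promoter peak did not rank high among TAF4b peaks. The highest-scoring promoter peaks of the 5 members stood above a median of 39.1% of the list, from 0.0636% to 97.4%, against a median of 61.6% for the 4943 protein-coding genes with a promoter peak. Etv5 stood at position 165 of those 4943 genes, and the other members at 3425 or lower. Their deposited distances had a median of -53 bp, against -50 bp for all these genes, and the Foxo1 and Ret peaks lay farthest from the start. HOMER's focus ratio ran from 0.553 to 0.673 at the 5 peaks, against a median of 0.64. All 5 replicate 1 promoter peaks of members shared bases with an H3K4me3 replicate 1 region, as did 86.3% of all replicate 1 promoter peaks.

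The start-site H3K4me3 regions of the 5 members with a TAF4b peak scored from 110.3 to 174.4, with a median of 110.3. Those of the 5 members without one scored from 25.3 to 126.7, with a median of 74.5. The groups overlapped, because Gfra1 and Kit lay above Ret, Etv5, Sohlh2 and Foxo1. Over the 15321 protein-coding genes with a start-site region, the medians were 94.7 for 4816 genes with a TAF4b promoter peak and 89.4 for 10505 without. Median widths were 1844 bp and 868 bp for the members, and 1467 bp and 1351 bp for the 15321 genes, again with and without TAF4b. These are descriptions of 1 library of each antibody, and the differences were not tested. The medians of 74.5 and 868 bp for members without a TAF4b peak were the values of Id4. A region over the Id4 gene body, named for Gm49291 and centred 1509 bp past the start, was not counted. That region scored 105.8 and was 1880 bp wide. Taking it for Id4 would raise both medians, so the gap between the member groups depends on this choice. Across all genes with an H3K4me3 promoter region, TAF4b was present at 28.3% in the lowest 10% of H3K4me3 scores and at 41.1% in the highest 10%. Etv5, Foxo1 and Ret all fell in the same 10% (scores of 101.4 to 113.3), in which 41.5% of genes had TAF4b. Gfra1, without a TAF4b peak, fell in the next 10%, where 44.3% had one.

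**Figure D3:**
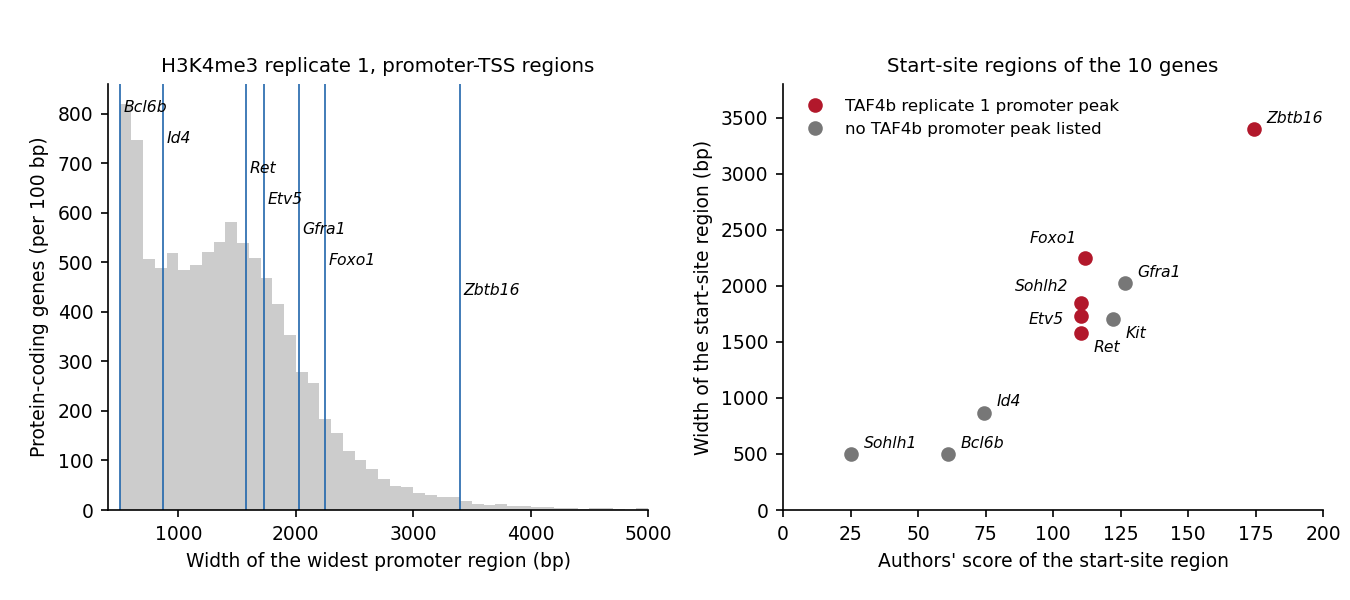
Left, widths of the widest H3K4me3 replicate 1 promoter region of 9569 protein-coding genes (grey bars, genes per 100 bp, axis cut at 5000 bp), with vertical lines at the 7 members that have one. Right, score and width of the start-site region of each of the 10 genes, coloured by the presence of a TAF4b replicate 1 promoter peak. Zbtb16 is highest in both, and Sohlh1 and Bcl6b are narrowest at 500 bp. The Bcl6b region shown covers no annotated start. Gfra1 and Kit lie among the genes with a peak.

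How far absence from replicate 2 can be read depended on the rank in replicate 1. Of the 200 promoter peaks nearest in rank to the Etv5 peak in TAF4b replicate 1, 52% overlapped a replicate 2 peak, and the Etv5 peak did not. Around the Sohlh2 and Ret peaks these shares were 1.5% and 0.5%, around Zbtb16 the share was 0%, and around Foxo1, which has fewer peaks below it, it was also 0%. For H3K4me3 the share around the Etv5 region was 15%, and that region was found again. Around the Zbtb16 region it was 21% and around Gfra1 13%, and neither was found again. Except for Etv5 and TAF4b, members were thus in ranks where most promoter intervals of replicate 1 had no counterpart in replicate 2.

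**Figure D4:**
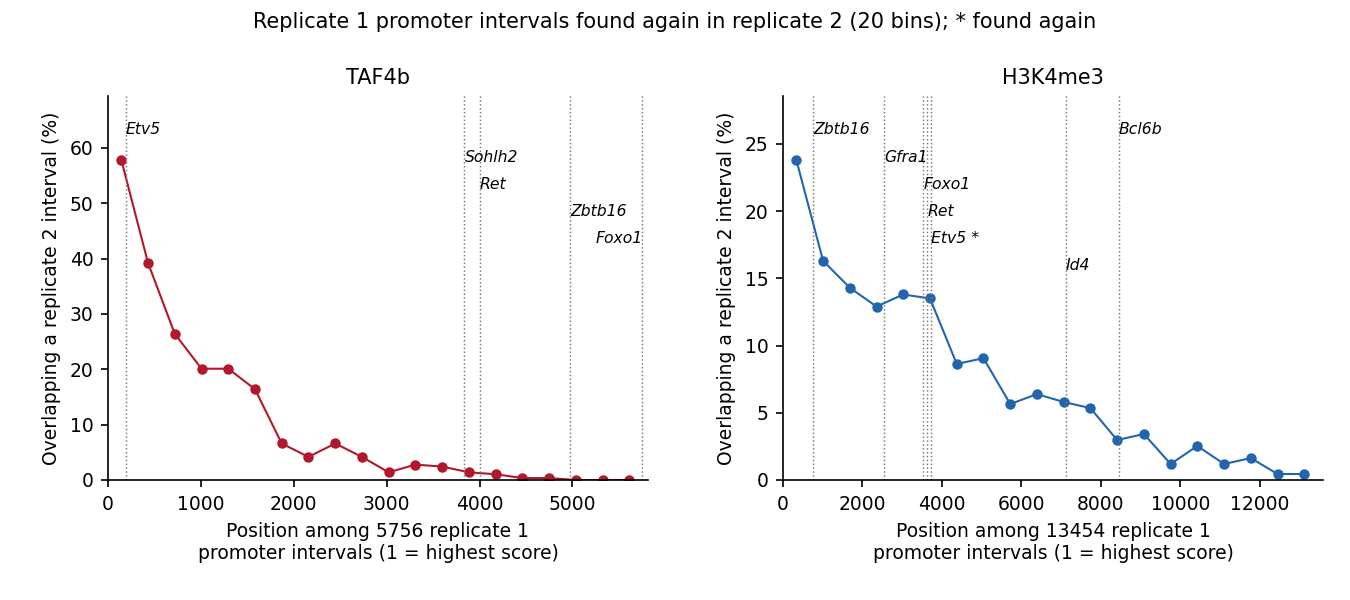
Percentage of replicate 1 promoter intervals that overlap a replicate 2 interval (y axis), in 20 bins by position in order of score (x axis, 1 is the highest), for TAF4b (left) and H3K4me3 (right). Dotted lines mark members with a promoter-class interval and an asterisk the one found again. Sohlh2 is not marked on the right because its replicate 1 region was classed as intron. Etv5 is the sole member in the upper part of the TAF4b list.

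The 300-base promoters, 250 bases before to 50 after the canonical start, had a median G and C content of 59.8%, against 54.3% for 21757 protein-coding promoters and 59.3% for the 4943 with a TAF4b replicate 1 peak. Ret (54.3%) and Etv5 (54.7%) were close to the median of all promoters. The members with and without a TAF4b peak had medians of 59% and 60.7% and did not separate. Zbtb16 had the highest content, 73.3%, and Id4 followed with 73%. Foxo1 had the highest ratio of observed to expected CpG, 1.09, above 97.8% of promoters, and Sohlh1 the lowest, 0.473. A GC box was in 9 of the 10 promoters, all but that of Gfra1, and in 42.5% of all promoters. A CCAAT box was in 4 of 10 and in 39.9% of all promoters. The TATA pattern was in 1 of 10, that of Etv5, and in 13.2% of all.

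**Figure D5:**
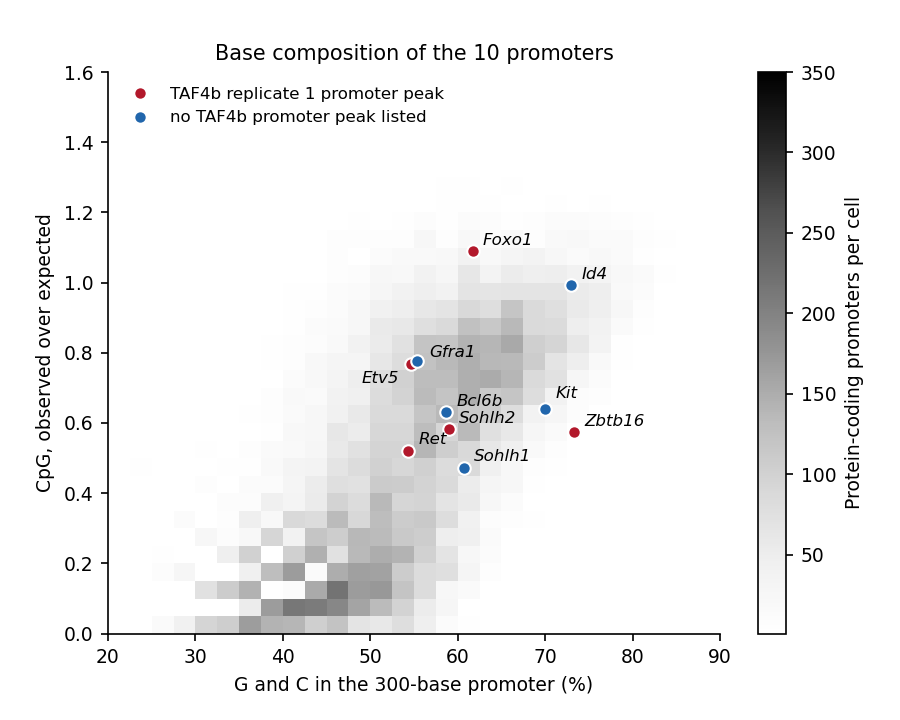
G and C content (x axis, %) and observed over expected CpG (y axis) of the 300-base promoters of the 10 genes, over a grey map of the number of protein-coding promoters. Points with and without a TAF4b replicate 1 promoter peak are mixed. Foxo1 is highest in CpG, and Zbtb16 and Id4 are highest in G and C.

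Other genes of the same pathways were counted over a list of 52. In TAF4b replicate 1, 12 of 52 (23.1%) had a promoter peak, which is close to the 22.7% of all protein-coding genes. In replicate 2 it was 1 of 52, Id1, with a score of 60.7 and rank 382, against 3.14% of all genes. Among 14 genes of GDNF signalling, 4 had a peak, among them Shc1, an adaptor (score 31.3, rank 608), Pik3r1, a PI3K subunit (18.4), and Grb2, an adaptor (18.4). Among 16 further factors of undifferentiated spermatogonia 3 had a peak, namely Taf4b itself (71.5, rank 3), Zbtb32 (23.8, rank 1535) and Sall4, a zinc finger factor (9.43, rank 6312). Of 6 members of the Foxo and Id families, Foxo6 had one in replicate 1 (22.3, rank 1800). Of 8 genes of KIT signalling and differentiation, the retinoic acid receptor genes Rara (13.4, rank 4384) and Rarg (11.9, rank 5031) had one. Of 8 surface marker genes, Cd9 (12.4, rank 4789) and Thy1 (7.94, rank 7270) had one. H3K4me3 replicate 1 promoter regions were listed at 34 of 52 (65.4%), against 44.0% of all genes. By role they were listed at 11 of 14 genes of GDNF signalling, 6 of 16 factors of undifferentiated spermatogonia, 4 of 6 genes of the Foxo and Id families, 6 of 8 genes of KIT signalling and differentiation and 7 of 8 surface marker genes. In replicate 2 such a region was listed at 1 of 52, Id3, with a score of 121.3, against 4.13% of all genes.

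By 2 percentiles in replicate 1, that of the TAF4b promoter peak and that of the H3K4me3 promoter region, the protein-coding gene most like Etv5 among 3622 was 9430015G10Rik, at a distance of 0.178 percentage points. The nearest to Zbtb16 was Zmynd11, to Ret Hps3 (both at a distance of 0) and to Foxo1 Ephx4 (0.776). The measure covers 2 libraries.

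The label of the cells was set against marker genes. TAF4b replicate 1 promoter peaks were listed at 6 of 10 germ cell genes (Ddx4, Dazl, Dnd1, Mael, Piwil2 and Tdrd9) and at 0 of 25 genes of Sertoli, Leydig, endothelial, macrophage, peritubular and smooth muscle cells. The share over all protein-coding genes was 22.7%. H3K4me3 replicate 1 promoter regions were listed at 5 of the 10 and at 11 of the 25, both near the 44.0% of all genes. The scores of these regions differed more than the counts. They ran from 28.3 (Mael) to 80.5 (Ddx4) at the germ cell genes. At the somatic genes they ran from 26.8 (Insl3 and Acta2) to 247.4 (Myh11). Among the somatic types the counts were 5 of 8 for Sertoli cells, 1 of 6 for Leydig cells, 2 of 4 for endothelium, 0 of 4 for macrophages and 3 of 3 for peritubular and smooth muscle cells. Whether somatic cells took part in the H3K4me3 regions at Kit, Gfra1 or the other members was not tested. In replicate 2 neither antibody listed a promoter interval at any of these 35 genes, where the shares over all genes were 3.14% for TAF4b and 4.13% for H3K4me3, so that few would be listed at the background share.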

How the data were processed

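CUT&RUN was run on sorted prospermatogonia, and 4 deposited lists were used, 1 per library. Per the submitters' processing notes the build was GRCm39, and bcl2fastq 2.20, Trim Galore 0.5.0, FastQC 0.11.5, Bowtie2 2.3.0, SAMtools 1.9 and HOMER 4.10 were named. Per the file headers the H3K4me3 lists were annotated with HOMER against Ensembl 103; the TAF4b headers name neither, and GRCm39 was used for both. Peak calling settings are not given in the sources used here. The score of each interval is the authors' deposited value, with no stated normalization, and the focus ratio of TAF4b peaks is a fraction deposited by the authors. Read depth is not given, so it is unknown. For each of the 4 libraries used, 1 list was deposited.

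Transcripts were matched to GENCODE M39 (98.6% to 99.2% of nearest transcripts), and start sites that differ from those of the deposited annotation are stated where they matter. A shared base (1 bp) counted as overlap. Python 3.11.15, pandas 2.3.3 and pysam 0.24.0 were used, and the helper functions were tested on simulated data. Coordinates are as deposited. No test was made, because single lists hold no replicate values per gene. All 10 members are named, with related genes that have a TAF4b promoter peak, except 1 that is counted but not reported here. For likeness, the nearest gene by 2 percentiles was named. The members and lists were chosen with earlier results of these data known. Ranks around a member were compared over 100 promoter intervals on each side, a choice made after seeing the data. Alternatives changed the gene assignment, the score threshold, the list size, the overlap and the replicates used.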

Additional observations from a re-analysis of the deposited data

How the results depend on the processing

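Of 29 alternative values for 6 results, 18 were close to the first value (for counts, within 1.5 times) and 11 moved. The number of members with a TAF4b promoter peak, 5, became 1 (Etv5) with the higher-scoring 50% of each list and 2 with equal list sizes, and ranged from 1 to 5 without 1 replicate. Leaving out TAF4b replicate 1 gave the 1, Foxo1. The number of members with an H3K4me3 promoter region, 8, became 3 with equal list sizes, and ranged from 2 (without replicate 1) to 7. For related genes 13 became 8 with the higher-scoring 50% and 3 with equal list sizes, and ranged from 1 (without TAF4b replicate 1) to 12. Of 6 member TAF4b promoter peaks, all 6 overlapped an H3K4me3 region; this became 1 with the higher-scoring 50% of each list, and ranged from 2 (without H3K4me3 replicate 1) to 6. The construction of these settings, with fewer intervals, lowers the counts. The median place of the member peaks, 39.1%, was 28.2% among promoter peaks alone. The median width of 1731 bp was the same over regions that cover a start site; the other alternatives kept the same 7 regions and could not move it. Leaving out the lowest-scoring 5% of peaks and counting regions across a start site were chosen after seeing the data.

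No paired analysis was possible because the results come from no test. Unknown depth limits each statement on genes missing from replicate 2.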
